A study of Homo sapiens with 10 samples.

Results

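Ion channel genes were examined during the differentiation of human embryonic stem cells (ESCs) into neuroectodermal cells (NECs). The set held every voltage-gated sodium or calcium channel gene and every potassium channel gene that was recognised by its symbol in the RNA-seq count table, the symbol being KCN with letters and a number, starting with CACNA1, CACNA2D, CACNB or CACNG, or having the form of SCN, a number and A or B. This gave 133 of the 31017 genes in the table. Members were taken by symbol, and no level or change entered the rule. The set was nevertheless chosen with earlier results of these data known.

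ESCs were of the established line H9, grown undifferentiated in Pluripro medium on its matrix. NECs were made from the same line by a published protocol and harvested on day 7. No allele or agent was otherwise recorded for either group. Each cell type had 2 biological replicates for RNA-seq and 2 for Promoter Capture Hi-C (PCHi-C), a method that enriches Hi-C ligation products containing a gene promoter. ESC PCHi-C replicate 2 combined technical replicates. All samples came from 1 line, so the spread between replicates covers cultures and libraries and not differences between individuals.

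Ion channels are membrane proteins that let selected ions pass down their gradients. Each consists of pore-forming subunits, often joined by auxiliary subunits that change the gating, trafficking or anchoring of the pore. Voltage-gated sodium channels carry the rising phase of the action potential, calcium channels couple depolarisation to secretion, contraction and transcription, and potassium channels set the resting potential and end the spike. Undifferentiated cells and neural progenitors also express many of them, at levels that are usually far below those of mature neurons or muscle.

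The RNA-seq libraries held between 19234087 and 25356382 counted reads, and the replicates of a cell type ranked genes almost alike (Spearman's rho across genes 0.994 in ESCs and 0.991 in NECs, against 0.867 to 0.897 between cell types). All 5 pluripotency markers examined, among them POU5F1 and NANOG, fell, and all 5 neuroectodermal markers, among them PAX6 and SOX1, rose. In CPM, read counts scaled to 1000000 reads of a library, the summed level of the pluripotency markers was 169 and 339 in the NEC replicates, against 2939 and 3020 in ESCs. Neural crest markers summed to 75.5 CPM in NEC replicate 1, 23.6 CPM in NEC replicate 2 and 20.3 and 20.8 CPM in ESCs. Of these 6 markers SNAI2, TFAP2A and TFAP2B rose and FOXD3, SOX10 and TWIST1 did not pass, FOXD3 having 284 and 399 reads in the ESC libraries and 186 and 9 in the NEC libraries. Mesendoderm markers summed to 32.1 and 89.5 CPM in the ESC replicates and to 4.12 and 3.32 CPM in the NEC replicates, and 5 of the 6 fell, as some channel genes did. Among 10 markers of postmitotic neurons 5 rose, including DCX and ELAVL3, and 5 did not pass the thresholds, including RBFOX3, SYT1 and SYP. Of 5 glial markers AQP4 and S100B rose, GFAP and MBP fell, and 1 did not pass. The muscle markers MYOD1, MYH6 and MYH7 were too low to test, ACTN2 fell, and TNNT2 and DES did not pass. The part of these marker differences in the results on channel genes was not tested, beyond the counts without single libraries. The ESC libraries shared a sequencing lane and the NEC libraries shared a different one, so lane and cell type cannot be told apart.

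Which channel genes changed their expression was asked first. A gene was called higher or lower in NECs when edgeR's quasi-likelihood test gave a Benjamini-Hochberg adjusted p under 0.05 and the log2 fold change (NEC against ESC) was beyond 1.5 in size, the thresholds that the study applied with another test. Of the 133 channel genes, 101 had enough reads to be tested, and 52 of these were called. In NECs 36 were higher, which is 35.6% of those tested, where 11.4% of all tested genes were called higher. Another 16 were lower, or 15.8%, where 9.68% of all tested genes were called lower. A further 19 had an adjusted p under 0.05 with a smaller change. The median log2 fold change of the tested members was 0.60, against 0.01 over all tested genes. A gene at the detection limit in one cell type entered the test only through the other, so these shares and medians describe the tested genes and not the whole set. In such whole-culture libraries, fewer cells that express a gene and less RNA per cell cannot be told apart.

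In CPM, both NEC libraries lay above both ESC libraries for 53 of the 101 tested channel genes and below them for 34, against 7510 and 7210 of the 17564 genes tested in all. Of the 52 calls, 39 (27 higher and 12 lower) also held when any 1 of the 4 libraries was left out. Without NEC replicate 1, the library with more neural crest RNA, 32 members were called higher and 15 lower, with 31 and 15 of them called as before. The 13 calls that were lost in at least 1 of these fits were those of CACNA1C, CACNA1I, CACNA2D4, CACNB3, KCNA5, KCND3, KCNG1, KCNH1, KCNJ2, KCNJ5, SCN1A, SCN2B and SCN4A. The plot of the levels by library holds only called genes, chosen on these same values. That their ESC and NEC points lie apart follows from this choice and is no further support.

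**Figure D1:**
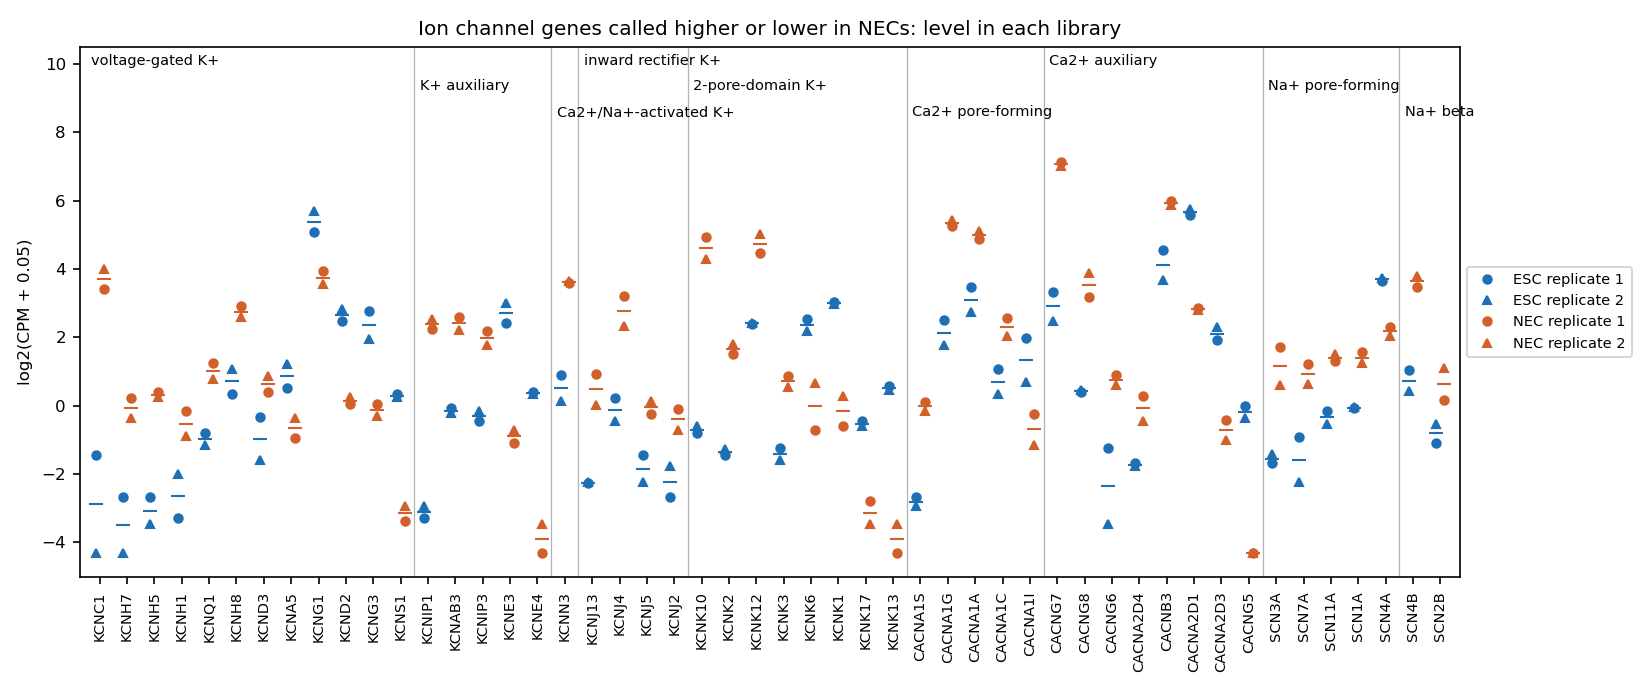
Level of 50 of the 52 called ion channel genes in each library, grouped by role. The vertical axis is log2(CPM + 0.05), circles and triangles are replicates 1 and 2, blue is ESC, orange is NEC, and bars are the mean of the 2 log values. CACNG7 is the highest in NECs and CACNA2D1 and KCNG1 are the highest in ESCs.

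The remaining 32 members were too low to test. None of them had more than 18 reads in any library, their median was 8 reads over the 4 libraries together, and KCNK18, SCN10A and KCNG4 had 0 reads in all 4. With 0 reads, the data allow up to 3 reads per library, or 0.140 CPM in ESCs and 0.131 CPM in NECs, for counting error only. Of the untested genes, 15 had at most 3 reads in every library. KCNA4, a pore-forming subunit of rapidly inactivating channels, was also untested, but it had 0 reads in both ESC libraries and 16 and 7 in NECs, which is at least 3.68-fold higher against a floor of 3 reads per library.

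Voltage-gated potassium channels formed the largest role, with 40 pore-forming or modulatory subunits. Of 29 tested, 9 were higher, 5 were lower and 15 were not called, with a median log2 fold change of 0.14. KCNC1, which encodes the fast-deactivating Kv3.1 channel of rapidly firing neurons, rose. It had 6 and 0 reads in the ESC libraries and 229 and 393 in the NEC libraries (log2 fold change 6.52, SE 0.67, adjusted p = 3.91e-04). Both NEC libraries thus lay far above both ESC libraries. The size of the change depended on the few ESC reads, at 11.29 without ESC replicate 1, 5.37 without ESC replicate 2 and 2.60 by DESeq2 with shrinkage. KCNQ1, a slowly activating channel of heart and epithelia, had 10 and 10 reads in the ESC libraries and 50 and 41 in the NEC libraries and rose as well (log2 fold change 2.10, SE 0.38, adjusted p = 0.00342).

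KCNH7, KCNH5 and KCNH1, channels of the ether-à-go-go family, had few reads in ESCs and were called higher. KCNH7 had 2 and 0 against 24 and 18 reads (the ESC libraries stand first here and in the pairs of counts that follow), a ratio of 19.9 (95% counting interval 5.17 to 170), and KCNH5 had 2 and 1 against 27 and 28 reads, a ratio of 17.4 (95% counting interval 5.64 to 86.8). KCNH1 had 1 and 5 against 18 and 12 reads, and its call was lost without ESC replicate 1 (log2 fold change 1.66, adjusted p = 0.101) and without NEC replicate 1 (1.78, adjusted p = 0.0785). KCNH8 and KCND3 were also called higher, at log2 fold changes of 2.01 and 1.62, that of KCND3 being lost without ESC replicate 2 (1.04, adjusted p = 0.145) or NEC replicate 2 (1.36, adjusted p = 0.0814).

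The subunits that fell included several that form no channel of their own, while other subunits of this kind were not called or not tested. KCNG3 and KCNG1 encode electrically silent subunits that modify other voltage-gated potassium channels. KCNG3 had 129 and 95 reads in the ESC libraries and 21 and 19 in the NEC libraries (log2 fold change -2.60, SE 0.38, adjusted p = 0.00160). KCNG1 was the highest of the voltage-gated potassium channel genes in ESCs per length, at 7.91 ± 2.35 RPKM (CPM divided by the exon length in kilobases; mean ± SD, n = 2, as for all levels given in this way), and had 2.50 ± 0.463 RPKM in NECs. Its counts were 639 and 1281 against 327 and 290 reads (log2 fold change -1.67, SE 0.23, adjusted p = 0.00125), and the change was under the fold threshold without ESC replicate 2 (-1.33) or NEC replicate 2 (-1.49). KCNS1, another silent subunit, had 23 and 28 against 1 and 2 reads, a ratio of ESC to NEC of 18.0 (95% counting interval 5.81 to 89.9). KCND2 encodes Kv4.2, a channel of the transient A-type current, and fell from 6.29 ± 1.11 to 1.06 ± 0.108 CPM (from ESCs to NECs, as in later pairs of this kind; log2 fold change -2.57, SE 0.28, adjusted p = 4.79e-04). KCNA5 had a log2 fold change of -1.60, and its call was lost without ESC replicate 2 (-1.18, adjusted p = 0.105) or NEC replicate 1 (-1.34, adjusted p = 0.0503).

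Among the members that were not called, KCNC4, a relative of KCNC1, had 198 and 203 against 194 and 252 reads (log2 fold change 0.05, SE 0.19, adjusted p = 0.836). Just outside the fold threshold lay KCNA3 at 1.45 and KCNH2 at 1.41, and just inside it lay KCNA5 at -1.60 and KCND3 at 1.62.

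The auxiliary subunits of these channels moved in both directions. Of 11 genes, 9 were tested, 3 rose and 2 fell. KCNIP1, a calcium-binding partner of Kv4 channels, went from the detection limit to a clear signal. It had 1 and 2 reads in the ESC libraries and 100 and 142 in the NEC libraries, a ratio of NEC to ESC of 76.4 (95% counting interval 25.8 to 373). KCNAB3, a cytoplasmic beta subunit of Kv1 channels, had 17 and 20 against 129 and 114 reads (log2 fold change 2.64, SE 0.29, adjusted p = 5.35e-04). KCNIP3 rose with it, at a log2 fold change of 2.33. KCNIP2, the auxiliary gene with the highest level per length in NECs (1.87 ± 0.172 RPKM), had a log2 fold change of 1.43, under the fold threshold. Without ESC replicate 1 (1.70) or NEC replicate 1 (1.52) it passed.

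KCNE3 and KCNE4 belong to a family of single-pass subunits that slow, open or silence potassium channels, and both fell. KCNE3 had 100 and 196 reads in the ESC libraries and 9 and 14 in the NEC libraries (log2 fold change -3.72, SE 0.36, adjusted p = 3.01e-04), and it was the highest auxiliary gene per length in ESCs at 1.84 ± 0.517 RPKM. KCNE4 had 24 and 30 against 0 and 1 reads, a ratio of ESC to NEC of 57.0 (95% counting interval 9.81 to 2294). The fall of KCNE3 was larger than the difference between its ESC replicates. Reads were counted without regard to strand, and an antisense gene covers 16.9% of the exon bases of KCNE3, so its reads may include some from that gene.

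Of the 12 calcium- or sodium-activated potassium channel genes 8 were tested, and 1 was called, KCNN3. It encodes the small-conductance channel SK3, and it had 34 and 26 reads in the ESC libraries and 257 and 311 in the NEC libraries (log2 fold change 3.13, SE 0.28, adjusted p = 2.39e-04). KCNN2, which encodes the related SK2 channel, had 540 and 623 against 185 and 259 reads (log2 fold change -1.49, SE 0.15, adjusted p = 3.96e-04), just short of the fold threshold. With DESeq2's size factors (-1.51) and without ESC replicate 2 (-1.58) or NEC replicate 2 (-1.63) it passed. KCNMB4, a beta subunit of the large-conductance BK channel, had the highest level per length of this role in both cell types, 4.99 ± 0.619 RPKM in ESCs and 3.04 ± 0.649 RPKM in NECs (log2 fold change -0.72, SE 0.18, adjusted p = 0.0139). KCNMA1, the BK pore itself, was low in both, with 54 and 52 reads in the ESC libraries and 55 and 93 in the NEC libraries (log2 fold change 0.37, SE 0.31, adjusted p = 0.341).

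All 4 called inward rectifiers rose, out of 15 genes of which 10 were tested. Inward rectifiers hold cells near the potassium equilibrium potential. KCNJ4, which encodes Kir2.3, had 21 and 17 reads in the ESC libraries and 198 and 122 in the NEC libraries (log2 fold change 2.99, SE 0.43, adjusted p = 0.00136), and its 3.44 ± 1.48 RPKM made it the highest of this role in NECs. KCNJ13 had a log2 fold change of 3.09, but 22.3% of its exon bases lie within exons of GIGYF2 on the opposite strand, so its count is uncertain. KCNJ5 (1.98) and KCNJ2 (1.96) had at most 26 reads in any library. The call of KCNJ5 was lost without ESC replicate 2 (1.53, adjusted p = 0.0902), and that of KCNJ2 without ESC replicate 1 (1.54, adjusted p = 0.101) or NEC replicate 1 (1.60, adjusted p = 0.0701). KCNJ11 encodes Kir6.2, the pore of the ATP-sensitive potassium channel. Its level in ESCs was 0.543 ± 0.00461 RPKM, and it had 51 and 66 against 114 and 112 reads (log2 fold change 0.88, SE 0.23, adjusted p = 0.0170), a change under the fold threshold.

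The 2-pore-domain channels, which carry the background potassium current that sets the resting potential, had both large rises and large falls: of 15 genes 9 were tested, and 4 rose and 4 fell. KCNK10, which encodes the mechanically and thermally gated TREK-2 channel, had 10 and 15 reads in the ESC libraries and 661 and 487 in the NEC libraries (log2 fold change 5.45, SE 0.33, adjusted p = 5.95e-05). Its relative KCNK2 (TREK-1) rose from 0.341 ± 0.0327 to 3.13 ± 0.451 CPM (log2 fold change 3.17, SE 0.35, adjusted p = 4.94e-04). KCNK12 and KCNK3 rose by 2.36 and 2.28 on the log2 scale. In the opposite direction, KCNK1 (TWIK-1) had 154 and 192 reads in the ESC libraries and 13 and 29 in the NEC libraries (log2 fold change -3.13, SE 0.33, adjusted p = 4.31e-04), and KCNK6 (TWIK-2) had 109 and 112 against 12 and 38 reads (log2 fold change -2.26, SE 0.44, adjusted p = 0.00493). KCNK13 had 27 and 33 against 0 and 1 reads, a ratio of ESC to NEC of 63.4 (95% counting interval 10.9 to 2544), and KCNK17 had 13 and 15 against 2 and 1 reads, a ratio of 9.86 (95% counting interval 3.04 to 50.7). KCNK10 and KCNK2 thus rose while KCNK1 and KCNK6 fell. KCNK5, an acid-sensitive channel, was the highest of this role in ESCs, at 8.76 ± 0.0456 RPKM, and had 3.38 ± 0.212 RPKM in NECs (log2 fold change -1.38, SE 0.12, adjusted p = 1.93e-04), a change just under the fold threshold. In NECs its level and that of KCNK10 (3.06 ± 0.956 RPKM) did not differ beyond the spread of the replicates.

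All 10 pore-forming calcium channel genes were tested, of which 4 rose, 1 fell and 5 were not called. CACNA1G encodes the low-voltage-activated T-type channel Cav3.1. It had 106 and 84 reads in the ESC libraries and 824 and 1062 in the NEC libraries (log2 fold change 3.20, SE 0.23, adjusted p = 1.10e-04). CACNA1H encodes the T-type channel Cav3.2 and was the highest of the role in both cell types, at 5.46 ± 0.139 RPKM in ESCs and 11.1 ± 0.585 RPKM in NECs (log2 fold change 1.03, SE 0.09, adjusted p = 2.27e-04), below the fold threshold. The remaining T-type gene, CACNA1I, had 74 and 39 reads in the ESC libraries and 17 and 10 in the NEC libraries (log2 fold change -2.18, SE 0.57, adjusted p = 0.0149). Its call was lost without ESC replicate 1 (-1.42, adjusted p = 0.0595) and without NEC replicate 2 (-1.76, adjusted p = 0.0570). The T-type genes therefore did not move as one, and the call of the one that fell rested on single libraries.

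High-voltage-activated calcium channels also included rises. CACNA1A, the P/Q-type channel of presynaptic terminals, rose from 8.83 ± 3.10 to 32.0 ± 3.60 CPM (log2 fold change 1.87, SE 0.24, adjusted p = 9.11e-04). CACNA1S, the L-type channel known as the voltage sensor of skeletal muscle, was near the floor in ESCs, with 2 and 2 reads in the ESC libraries and 22 and 21 in the NEC libraries, a ratio of NEC to ESC of 10.2 (95% counting interval 3.70 to 39.0). The muscle markers summed to 10.4 CPM in each ESC library and to 3.56 and 6.36 CPM in the NEC libraries, and of the 3 tested 0 were higher and 1 was lower. Among the untested, MYOD1 had 2 and 0 against 0 and 0 reads, MYH7 0 and 2 against 11 and 1, and MYH6 5 and 2 against 4 and 12. CACNA1C had a log2 fold change of 1.61, which fell under the fold threshold without ESC replicate 2 (1.26) or NEC replicate 1 (1.33). The neuronal N-type gene CACNA1B had 183 and 262 against 151 and 237 reads (log2 fold change -0.28, SE 0.20, adjusted p = 0.265).

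The channel gene with the highest level per length in NECs was an auxiliary calcium channel gene. CACNG7 encodes a transmembrane protein of the gamma subunit family whose members also act on AMPA receptors. It had 190 and 138 reads in the ESC libraries and 3029 and 3183 in the NEC libraries (log2 fold change 4.13, SE 0.25, adjusted p = 6.35e-05), or 47.2 ± 3.14 RPKM in NECs. CACNG8 and CACNG6, its neighbours on chromosome 19, rose too. CACNG8 had 24 and 33 against 195 and 363 reads (log2 fold change 3.19, SE 0.31, adjusted p = 3.20e-04), and CACNG6 had 7 and 1 against 39 and 36 reads (log2 fold change 3.09, SE 0.67, adjusted p = 0.00732). The starts of these 3 genes lie within 83.0 kb of each other.

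Another gamma subunit gene, CACNG5, moved in the opposite direction. It had 18 and 18 reads in ESCs and 0 in both NEC libraries, at least 6.42-fold lower in NECs against the floor of 3 reads per library. Of the alpha-2-delta subunits, which carry the pores to the membrane, CACNA2D1 had 5.58 ± 0.489 RPKM in ESCs, within the spread of CACNG4 (4.98 ± 0.900 RPKM). It fell, with 905 and 1342 reads in the ESC libraries and 155 and 170 in the NEC libraries (log2 fold change -2.85, SE 0.12, adjusted p = 2.12e-05). CACNA2D3 fell as well, with 70 and 120 against 15 and 11 reads (log2 fold change -2.91, SE 0.35, adjusted p = 7.27e-04). CACNA2D4 and CACNB3 were called higher, at 1.84 and 1.76. The call of CACNA2D4 held only when NEC replicate 2 was the library left out (adjusted p from 0.0533 to 0.0807 without each of the others), and the change of CACNB3 was 1.38 without ESC replicate 2. Of the 16 auxiliary calcium channel genes 13 were tested, and 5 rose, 3 fell and 5 were not called.

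Of the 10 pore-forming sodium channel genes, 9 were tested, and 4 rose and 1 fell. All that rose were low. SCN3A, the channel most typical of the developing brain, had 5 and 8 reads in the ESC libraries and 69 and 36 in the NEC libraries (log2 fold change 2.95, SE 0.54, adjusted p = 0.00359). SCN7A, which encodes a sodium-sensing relative of these channels, had 9 and 4 against 49 and 37 reads (log2 fold change 2.61, SE 0.53, adjusted p = 0.00552). SCN11A and SCN1A rose by 1.81 and 1.51 on the log2 scale, and SCN1A was at the threshold, so that its change was 1.48 without ESC replicate 1, 1.32 without NEC replicate 1 and just under the threshold, and so not called, with the replicate number as a block. SCN8A, the main sodium channel of axon initial segments, had the highest level per length in both cell types, 1.80 ± 0.243 RPKM in ESCs and 1.59 ± 0.174 RPKM in NECs (log2 fold change -0.18, SE 0.15, adjusted p = 0.339). SCN4A, known from skeletal muscle, had 237 and 330 against 105 and 100 reads (log2 fold change -1.53, SE 0.19, adjusted p = 7.34e-04), and its change was under the fold threshold without ESC replicate 2 (-1.49) or NEC replicate 2 (-1.40).

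The 4 sodium channel beta subunit genes, which encode adhesion-like proteins that tune the pore, were all tested. SCN4B rose and was the highest of them in both cell types, at 0.293 ± 0.0900 RPKM in ESCs and 2.22 ± 0.351 in NECs. Its counts were 38 and 32 against 238 and 344 reads (log2 fold change 2.94, SE 0.28, adjusted p = 2.82e-04). Its neighbour SCN2B had 8 and 16 against 23 and 52 reads (log2 fold change 1.55, SE 0.47, adjusted p = 0.0259). The call of SCN2B was lost without ESC replicate 1 (1.29, adjusted p = 0.105), ESC replicate 2 (1.90, adjusted p = 0.0503) or NEC replicate 2 (0.97, adjusted p = 0.112). SCN3B had a log2 fold change of 0.12 and was not called. The plot of the changes by role shows called genes on both sides of zero in 6 of the 9 roles.

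**Figure D2:**
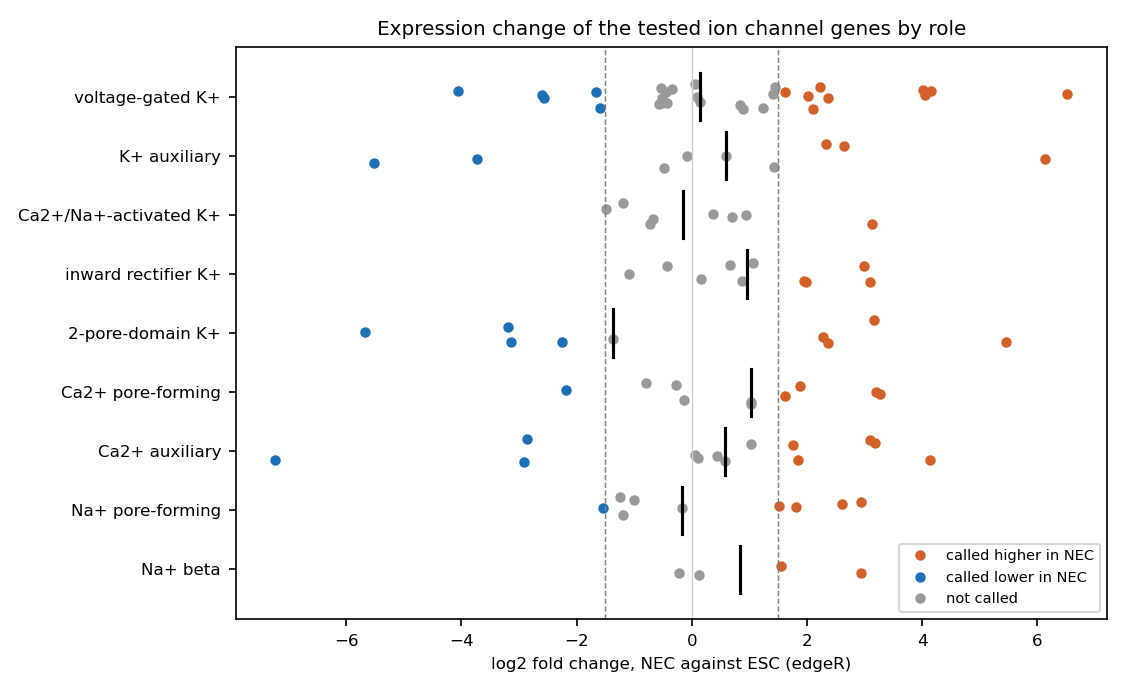
Log2 fold change (NEC against ESC, edgeR) of the 101 tested ion channel genes, one point per gene, by role. Orange points were called higher, blue points lower and grey points were not called, black bars are medians and dashed lines mark the fold threshold of 1.5. The medians run from -1.38 in the 2-pore-domain channels to 1.03 in the pore-forming calcium channels.

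Partners of the channels that lie outside the set were examined in a list of 29 genes, all found and 28 tested. By edgeR 3 of the 28 were called higher and 0 lower, where 11.4% and 9.68% of all tested genes were. The share called higher was thus near that of all genes. A log2 fold change below 0 at an unadjusted edgeR p under 0.05 was seen for 11. For that looser count no share over all genes was computed. The median log2 fold change was -0.34, against 0.01 over all tested genes. DESeq2 without shrinkage called 0 lower. ATP1B2 encodes a subunit of the sodium pump, which builds the gradients that the channels use. It had 199 and 155 reads in the ESC libraries and 661 and 491 in the NEC libraries (log2 fold change 1.61, SE 0.30, adjusted p = 0.00425). ABCC8, the sulfonylurea receptor SUR1 that assembles with KCNJ11, had 22 and 14 against 188 and 190 reads (log2 fold change 3.28, SE 0.35, adjusted p = 4.55e-04). Of the remaining partners, FGF14 was untested, and the HCN pacemaker channels, the ankyrins ANK2 and ANK3, and the NALCN complex genes were not called.

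REST, which silences many neuronal genes outside the nervous system, was also in that list. Its level ran from 103 ± 7.71 to 58.0 ± 0.476 CPM (log2 fold change -0.82, SE 0.09, adjusted p = 5.72e-04), a change below the fold threshold. REST binds an element known as RE1. Matches to the 21-base RE1 consensus were searched on both strands within 2500 bases of each gene start, allowing 3 mismatches at the 19 fixed letters. At least 1 match was found for 6 of the 133 channel genes (4.51%), and for 302 of 31004 genes in all (0.974%). The matches are shown so that their letters can be compared with each other. They are read 5′ to 3′ along the strand of the motif, in GRCh37, with the letters that match the fixed letters in capitals.

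CACNA1B, chr9:140773239-140773259, minus strand: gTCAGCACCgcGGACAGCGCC
KCNH4, chr17:40332301-40332321, minus strand: TTCAGCACCttGGACAGCcaC
KCNH7, chr2:163697318-163697338, minus strand: TTCAGaACCatGGAtAGCtCC
KCNJ6, chr21:39286662-39286682, minus strand: TTCAGCACCaaGGcCAGaGCC
KCNK12, chr2:47798605-47798625, plus strand: gTCAGCACCgcGGACAGCGCa
SCN2A, chr2:166094994-166095014, plus strand: cTCAGCACCatGGACAGCGtt

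The match at CACNA1B had 1 mismatch, those at KCNH4, KCNJ6 and KCNK12 had 2, and those at KCNH7 and SCN2A had 3. Those of CACNA1B, KCNH4 and KCNJ6 lie in introns, 1008, 985 and 2077 bases into the gene. The other 3 lie upstream, at -537 from the gene start for KCNK12, -908 for SCN2A and -2088 for KCNH7. Genes with a match did not share a direction. KCNH7 and KCNK12 rose, CACNA1B, KCNJ6 (-0.43) and SCN2A (log2 fold change -1.20, SE 0.55, adjusted p = 0.0964) were not called, and KCNH4 was untested, with 5 and 3 against 0 and 1 reads. A match is a likeness of letters only.

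The start regions of many genes are rich in CpG, and the shares are given here without a test. In windows from 250 bases before to 50 after each gene start, 58 of 133 channel genes (43.6%) had a GC content of at least 55% and a CpG ratio, observed over expected, of at least 0.65, against 35.0% of all genes. Among channel genes that rose 13 of 36 had such a start, among those that fell 9 of 16, among those tested and not called 28 of 49 and among the untested 8 of 32. In all genes the shares were 42.4%, 35.5%, 57.4% and 10.8%. CpG-rich and CpG-poor starts are shown by the 200 bases upstream of the first annotated exon base of genes described above, 2 that rose and 2 that fell, given in GRCh37 and in the direction of transcription with every CG in capitals.

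KCNC1, rose, chr11:17756121-17756320, plus strand: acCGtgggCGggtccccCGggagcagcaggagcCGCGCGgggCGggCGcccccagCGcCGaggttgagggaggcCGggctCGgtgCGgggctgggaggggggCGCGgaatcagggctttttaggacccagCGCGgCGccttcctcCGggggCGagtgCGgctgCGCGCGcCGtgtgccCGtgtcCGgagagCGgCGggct
KCNIP1, rose, chr5:169780291-169780490, plus strand: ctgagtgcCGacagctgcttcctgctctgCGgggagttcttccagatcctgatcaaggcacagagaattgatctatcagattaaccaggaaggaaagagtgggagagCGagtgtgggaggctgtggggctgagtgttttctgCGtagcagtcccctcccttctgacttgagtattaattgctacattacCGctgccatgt
CACNA2D1, fell, chr7:82073273-82073472, minus strand: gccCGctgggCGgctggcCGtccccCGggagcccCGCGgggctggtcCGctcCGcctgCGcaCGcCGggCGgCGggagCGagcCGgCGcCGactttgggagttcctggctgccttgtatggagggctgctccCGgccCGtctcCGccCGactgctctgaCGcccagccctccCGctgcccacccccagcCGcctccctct
KCNE3, fell, chr11:74178775-74178974, minus strand: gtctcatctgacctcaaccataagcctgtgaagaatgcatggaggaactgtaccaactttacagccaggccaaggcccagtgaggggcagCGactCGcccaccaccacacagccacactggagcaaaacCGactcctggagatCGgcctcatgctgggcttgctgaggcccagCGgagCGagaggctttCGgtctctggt

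KCNC1 has 29 CG pairs in this window at a GC content of 79.0%, and CACNA2D1 has 24 at 78.5%. KCNIP1 has 5 at 52.0% and KCNE3 has 7 at 59.0%. A CpG-dense and a CpG-poor start thus occur among both the genes that rose and those that fell.

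Of the 133 channel genes, 48 fell into 20 groups in which the starts of neighbours were at most 500 kb apart. For these groups no share over all genes was computed, and 36 of the 52 calls in the whole set were rises. At least 2 members were called in 4 of these groups, and all called members of the 4 rose: CACNG7, CACNG8 and CACNG6 on chromosome 19, SCN4B and SCN2B on chromosome 11, CACNA2D4 and CACNA1C on chromosome 12, and SCN1A and SCN7A on chromosome 2, where SCN9A between them had a log2 fold change of -1.01 and was not called. The calls of SCN2B, CACNA2D4, CACNA1C and SCN1A were among those lost when 1 library was left out. Next to the SCN1A group lie SCN3A, which rose, and SCN2A, which was not called, with starts 35.3 kb apart. On chromosome 17, CACNG5 fell while CACNG4, next to it, had 380 and 385 against 853 and 805 reads (log2 fold change 1.03, SE 0.17, adjusted p = 0.00233) and was not called.

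Contacts of the channel gene promoters were then examined by PCHi-C. The deposited lists give pairs of a baited HindIII fragment and a second fragment, the promoter-interacting region (PIR), with a CHiCAGO score, which grows as a pair is seen more often than expected at its distance. The lists hold only scores of at least 12 and no read numbers, so the number of reads supporting a contact is unknown and a pair that is missing may lie just below the threshold. All 158504 fragments in the lists begin at a HindIII site in GRCh37. Of the 133 genes, 128 had their start in a bait, and no bait held the starts of several channel genes. Some of these baits also held the start of a gene outside the set, such as RPL19 with CACNB1. Their contacts cannot be assigned to the channel gene alone. The starts of SCN11A, CACNA1A, KCNN1, CACNG7 and CACNA1F lay in no bait.

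In the lists of merged replicates, these 128 baits had 602 PIRs in the ESC list and 670 in the NEC list, of which 291 were the same fragment pairs. The single ESC replicates gave 578 and 502 PIRs and the single NEC replicates 660 and 524, and the ranges of the cell types overlapped. The median was 2 PIRs per channel bait in ESCs and 3 in NECs, against 2 in each over all 21833 baits. In the merged ESC list 17.2% of channel baits had no PIR, against 20.1% of all baits, and in the merged NEC list 14.8% had none, against 18.8%. The PIRs of the channel baits lay at a median of 188 kb (ESC) and 202 kb (NEC) from the bait, where those of all baits lay at 197 and 217 kb. None of the contacts was between chromosomes.

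The kinds of fragment contacted by channel promoters are given beside those of all baits, without a test. Of the PIRs of channel promoters, 19.1% in ESCs and 20.7% in NECs were themselves baits, against 31.6% in both lists overall. Another share, 16.3% in ESCs and 16.4% in NECs lay within the channel gene itself, against 9.04% and 8.61% for all baits that hold a gene start. The channel genes were long, with a median of 56.4 kb against 16.7 kb over all genes. The extreme was KCNMA1, in which all 32 PIRs in ESCs and all 33 in NECs lay in the gene's own body. For KCNQ5, a further M-current subunit, 11 of 12 PIRs in ESCs and 16 of 17 in NECs did.

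Gained interactions were defined as called in both NEC replicates and in no ESC list, and lost interactions as the reverse. There were 38 gained interactions at 30 channel baits, or 23.4% of the 128, where 17.8% of all baits had at least 1. There were 32 lost interactions at 25 baits, or 19.5%, where 19.0% of all baits had at least 1. Another 48 interactions were called in all 4 replicates. Both NEC replicates had more PIRs than either ESC replicate at 19 channel baits (14.8%), against 13.1% of all baits, and the reverse held at 12 (9.38%), against 12.8%. These shares were near those of all baits. The gained interactions had a median replicate score of 12.8 and the lost ones of 13.4, close to the threshold of 12, while those called in all 4 replicates had a median of 15.2.

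Expression and contact number were compared bait by bait. Of the 33 channel genes that rose and had a bait, 6 had more PIRs in both NEC replicates than in either ESC replicate, and 5 had fewer. Over all genes that rose, the shares were 20.2% and 10.1%, against 18.2% and 15.2% here. Of the 16 channel genes that fell, 1 had more PIRs in NECs and 2 had fewer by this measure (6.25% and 12.5%, against 11.4% and 16.1% of all genes that fell). Among the 47 tested channel genes that were not called, 8 had more and 2 had fewer (17.0% and 4.26%, against 14.2% and 12.4% of all genes not called).

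**Figure D3:**
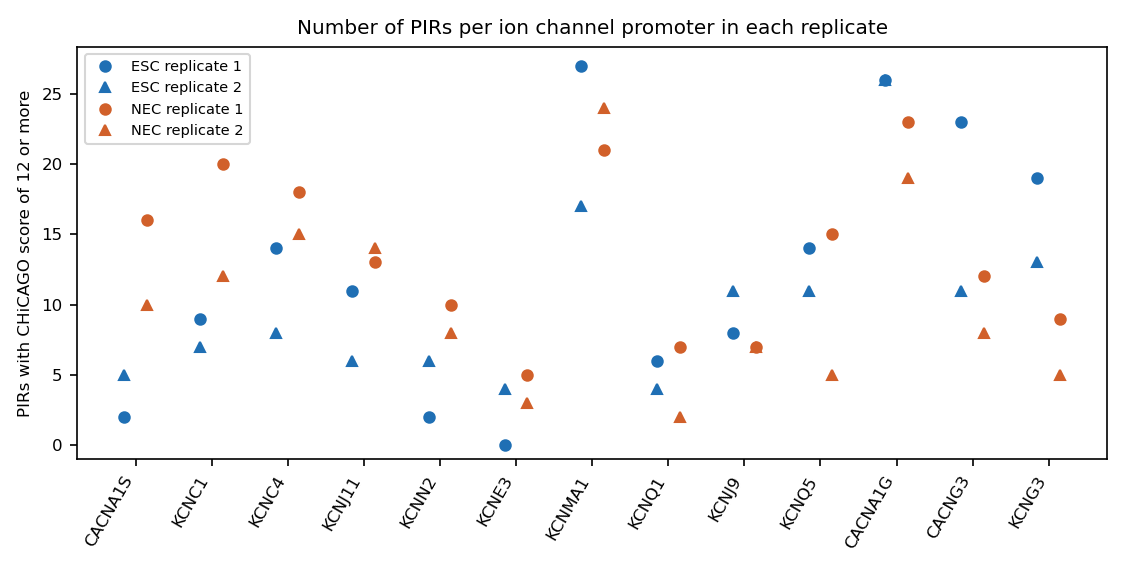
Number of PIRs with a CHiCAGO score of 12 or more in each PCHi-C replicate for 13 ion channel promoters, those with the most PIRs, those with the most gained and lost interactions, and KCNE3. Blue is ESC and orange is NEC, circles and triangles are replicates 1 and 2, and promoters are ordered by the difference between the cell types. At CACNA1S and KCNC1 both NEC points lie above both ESC points, and at KCNG3 both lie below.

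The KCNC1 promoter was one of those with more contacts in NECs. It had 9 and 7 PIRs in its ESC replicates against 20 and 12 in its NEC replicates, and 5 and 17 in the merged lists. The merged ESC list thus held fewer PIRs than either ESC replicate, and the contrast between the cell types was smaller in the replicates. The 19 PIRs in the merged lists included 12 in SERGEF, downstream of KCNC1, between 93.4 and 276 kb from the bait. One PIR in SERGEF, 249 kb away, was called in all 4 replicates, with a merged score of 12.9 in ESCs and 21.8 in NECs. Upstream, a PIR in OTOG at 138 kb was gained, with scores of 13.6 and 15.7 in the NEC replicates, and the ABCC8 promoter, at 260 kb, was called in 1 replicate of each cell type. One PIR in SERGEF, at 252 kb, was lost. The larger number of contacts went with the rise of KCNC1, and whether one bears on the other was not tested.

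KCNJ11 lies 345 kb from KCNC1 by start and also had more contacts in NECs, with 11 and 6 PIRs in its ESC replicates against 13 and 14 in its NEC replicates. Its strongest contact in both cell types was the ABCC8 promoter, 88.9 kb away, so the promoters of the pore and of the regulatory subunit of the ATP-sensitive potassium channel met in all 4 replicates. The scores were 17.8 and 18.9 in ESCs and 17.4 and 20.5 in NECs. In all, 5 contacts were called in every replicate, and 2 within USH1C, at 110 and 129 kb, were gained. ABCC8 was higher in NECs while KCNJ11 did not reach the fold threshold. In the plot of scores by distance, the merged ESC list has no contact of KCNJ11 between 104 and 160 kb. This window was chosen as a wide gap between the ESC contacts, and the merged NEC list has 6 contacts in it.

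CACNA1S had 2 and 5 PIRs in its ESC replicates against 16 and 10 in its NEC replicates, and 10 and 22 in the merged lists, with 7 of these 24 PIRs in KIF21B and 4 within its own gene. Its 2 gained contacts were with the GPR25 promoter at 237 kb and an intergenic fragment at 152 kb. CACNA1S rose, from near the floor. KCNG3 showed the opposite. It had 19 and 13 PIRs in its ESC replicates against 9 and 5 in its NEC replicates, with 2 lost contacts at 156 and 215 kb. Of its 32 PIRs in the merged lists, 28 lay in MTA3, whose start shares the KCNG3 bait, so the contacts cannot be assigned to one of these genes. Its nearest contact in the merged NEC list lay at 87.2 kb. The merged ESC list held 9 contacts nearer than that, a limit set by the NEC list itself. The strongest contact, at 176 kb, scored 30.2 in ESCs and 34.9 in NECs.

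**Figure D4:**
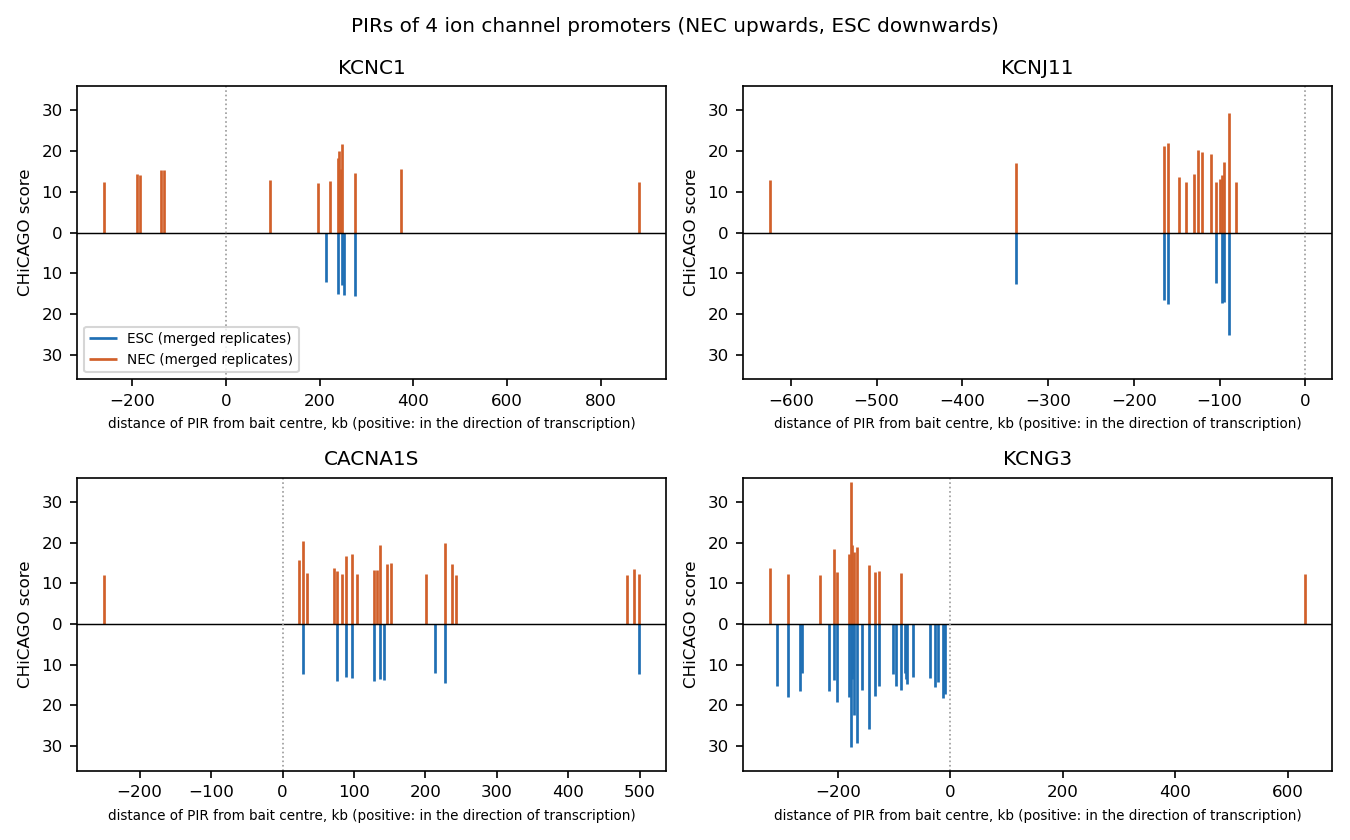
CHiCAGO scores of the PIRs of 4 ion channel promoters in the merged lists, drawn upwards for NECs (orange) and downwards for ESCs (blue), against the distance of the PIR from the centre of the bait in kb, positive in the direction of transcription. KCNC1 and CACNA1S have 17 and 22 PIRs in NECs against 5 and 10 in ESCs, although the ESC replicates of KCNC1 have 9 and 7, and KCNG3 has 15 against 29.

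Other promoters with many PIRs, or with gained or lost contacts, belonged to genes that were not called or not tested. CACNG3, a gamma subunit gene with at most 1 read in any library, had the most PIRs of all in a merged list, 45 in ESCs and 23 in NECs, and 23 of the 46 PIRs in these lists lay in PRKCB. It had 23 and 11 PIRs in its ESC replicates against 12 and 8 in its NEC replicates, and the cell types thus overlapped. KCNMA1 had 32 and 33 PIRs in the merged lists, with 2 gained and 1 lost. KCNC4 had 26 in each, and its replicates lay higher in NECs (14 and 8 PIRs in its ESC replicates against 18 and 15 in its NEC replicates) although its expression did not pass the test. KCNQ5 had 14 and 11 PIRs in its ESC replicates against 15 and 5 in its NEC replicates, with 1 gained and 1 lost. KCNJ9, a neuronal G protein-gated rectifier that was nearly silent (7 and 1 against 1 and 2 reads), had the most gained and lost interactions together, 2 of each. KCNN2, which did not reach the fold threshold, had 3 gained and no lost contact, 2 of them intergenic at 685 and 752 kb and 1 in its own intron at 83.9 kb.

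CACNA1G had 26 PIRs in each ESC replicate and fewer, 23 and 19, in the NEC replicates, while its expression rose. Its merged lists held 26 and 30, and 6 contacts were called in all 4 replicates, more than at any other channel promoter. KCNQ1, which rose, had 1 gained and 2 lost contacts. KCNE3, which fell, had 0 and 4 PIRs in its ESC replicates against 5 and 3 in its NEC replicates, with 8 and 13 in the merged lists. Those of its PIRs with the highest merged scores in each cell type lay in POLD3, at 99.1 and 118 kb, with 15.8 and 16.1 in ESCs and 18.1 and 18.9 in NECs. None of its contacts was gained or lost.

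Contacts between 2 channel promoters were few. The starts of KCNIP1 and KCNMB1 lie 36.2 kb apart on chromosome 5, and KCNMB1 lies within the KCNIP1 gene. The KCNIP1 bait contacted that of KCNMB1 in all 4 replicates, with merged scores of 24.3 in ESCs and 18.4 in NECs. No list held this contact from the KCNMB1 bait. KCNIP1 rose, whereas KCNMB1, a BK beta subunit gene, had 18 and 26 against 10 and 10 reads (log2 fold change -1.20, SE 0.36, adjusted p = 0.0258) and was not called. The KCNJ10 bait contacted that of KCNJ9 in both ESC replicates and in no NEC list, over 10.9 kb. From the KCNJ9 bait this contact was called in the merged ESC list alone. KCNA2, a Kv1 subunit gene of axons, contacted KCNA10, KCNA3 and KCNC4, its neighbours on chromosome 1, each in at most 1 replicate per cell type. The SCN9A bait contacted that of SCN7A in the merged ESC list alone, at a score of 12.2.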

How the data were processed

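RNA-seq reads were trimmed (trim galore) and aligned to GRCh37 (hg19) by the authors, whose processing notes name TopHat2 2.0.8b and Bowtie 1.0.0, and the deposited counts are raw reads per gene from SeqMonk, not strand-aware and not normalised. PCHi-C reads were processed with HiCUP, and the deposited lists give CHiCAGO scores of at least 12 for each replicate and for both replicates merged, without read numbers. Conventional Hi-C was not analysed here.

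Counts were fitted for all genes with edgeR 4.0.16 (R 4.3.3; filterByExpr at a minimum count of 10, TMM scaling, quasi-likelihood F-test with cell type as the term, Benjamini-Hochberg adjustment over 17564 genes), and DESeq2 1.42.0, the tool the study used, was an alternative. Each SE of a log2 fold change was worked back from the F statistic. It is the size of the coefficient fitted without a prior count, divided by the square root of F. It thus holds no information beyond the test, and the printed fold change includes a small prior count. With 2 replicates per cell type, an SD has 1 degree of freedom, and p-values measure the spread between cultures of 1 line. Library totals ran from 19234087 to 25356382 reads. Replicates differed beyond sampling noise (chi-square per degree of freedom 16.6 in ESCs and 20.0 in NECs), so each was counted. On simulated counts of 17564 genes with 200 changed by a log2 fold of 3, edgeR recovered 200. DESeq2 recovered 200 without shrinkage and 156 with it. The changed genes were drawn from those above a minimum level, at a common dispersion. Recovery of genes with few reads, noisier replicates or smaller changes was thus not tested. CPM used TMM-scaled library sizes, and RPKM divided these by the exon length. Intervals of ratios, given where no library of a group had more than 3 reads, are exact 95% counting intervals, and the floor was 3 reads per library, for counting error only. A promoter was the bait that holds the gene start. PIR numbers were not tested, because 2 replicates against 2 cannot pass an exact permutation test. Promoter sequences and exons were read from GRCh37 and its GENCODE 44 annotation with Python 3.11.15.

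The members and gene lists were chosen with earlier results of these data known. Named genes were, in each role, up to 2 called genes with the largest and up to 2 with the smallest change at an average log2 CPM of at least 0, the genes highest per length in each cell type, KCNE3, the baits with the most PIRs or the most gained and lost interactions, and genes at the floor in one cell type with 30 or more reads in both libraries of the other. Further genes were named after their values were seen. Alternatives covered scaling, filters, test, replicate block, fold threshold, score, PIR sharing and leaving out replicates. Some genes are not reported by name here, and counts over all members include them.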

Additional observations from a re-analysis of the deposited data

How the results depend on the processing

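The numbers of channel genes called higher and lower stayed within 1.5 times of 36 and 16 under every alternative run. Leaving out 1 library gave 31 to 35 higher and 14 to 15 lower, other scalings and filters 26 to 37 and 11 to 17, DESeq2 30 and 16 without shrinkage and 29 and 15 with it, and no fold threshold 47 and 24. With the replicate number as a block 35 were higher and 16 lower, and SCN1A was the call lost. Replicate differences correlated at 0.061 between the cell types. The labels do not say whether the replicate numbers pair the samples, and a low correlation cannot decide it. Of 454 values of 38 tested named genes under the alternatives, 427 kept their direction and side of the thresholds, 12 lost and 13 gained the call, and 2 changed sign, both of KCNC4, at -0.12 without ESC replicate 2 and -0.04 without NEC replicate 2, within a range of -0.12 to 0.22 over the libraries left out. No scaling moved the median of all genes by more than 0.1 on the log2 scale.

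The contact counts depended on the score. At a score of at least 15, 7 interactions were gained, 3 lost and 6 called in all 4 replicates, with a median of 0 PIRs per bait in ESCs and 0.5 in NECs. With PIRs within 10 kb counted as shared, 159 were called in all 4 replicates. Without PIRs that are baits, 17 were lost and the medians were 1 in ESCs and 2 in NECs. Leaving out a replicate means that 1 replicate suffices for a call in that cell type, which gave 42 to 414 gained, 35 to 343 lost and 63 to 78 retained interactions, with medians of 2 to 3 in ESCs and 3 to 4 in NECs. Depth limits genes below about 10 reads per library, and read numbers behind the scores are unknown.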
